A study of Mus musculus with 10 samples.

Results

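The MHC class I genes described here are the heavy chains H2-K1, H2-D1, H2-Q7 and H2-T23, their light chain B2m, the peptide transporter genes Tap1 and Tap2, the loading and trimming genes Tapbp and Erap1, and Nlrc5, the class I transactivator. They were taken by symbol from a table of 54532 genes. Each of the 10 symbols matched a single row, and all 10 were among the 14283 genes with enough reads to be tested. The study sequenced mRNA from mouse splenic B cells in 2 groups. The fibrosis group held 5 libraries from mice whose livers had been scarred by carbon tetrachloride (CCl4), a hepatotoxin given into the peritoneum for 4 weeks. The control group held 5 libraries from wildtype mice. Strain, age, sex, any vehicle given to controls, the way B cells were isolated and whether each library came from a separate mouse are unknown here, as the labels leave them out, so p-values measure the spread between these libraries.

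MHC class I molecules sit on the surface of nearly all nucleated cells and show CD8 T cells and NK cells peptides made from the cell's own proteins. The proteasome cuts these peptides, the TAP transporter moves them into the endoplasmic reticulum, aminopeptidases trim them, and tapasin helps to load them onto a heavy chain paired with beta-2-microglobulin. NLRC5 drives transcription of this gene set by joining factors bound to a conserved block of promoter elements, and interferon-gamma raises it further. B cells also carry MHC class II, which presents peptides to CD4 T cells.

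Library totals ranged from 13439100 to 17069393 counts in fibrosis and from 15912080 to 17954551 in controls. B cell markers were abundant, with Cd79a, a signalling chain of the B cell antigen receptor, at 1995 ± 409 CPM (counts scaled to library size) in fibrosis and 1623 ± 46.7 CPM in controls (SD, n = 5 each), while Cd3e, a T cell receptor subunit, was at 2.25 ± 1.78 CPM in fibrosis and 0.840 ± 0.450 CPM in controls. Other markers were not as low. Cd8a, also in the T cell list, was at 38.3 ± 13.1 CPM in fibrosis and 21.2 ± 1.85 CPM in controls, far above Cd3e. Which cells it came from was not tested. Summed macrophage markers ranged from 1014 to 3704 CPM in fibrosis and from 1332 to 2426.5 CPM in controls. Summed neutrophil markers ranged from 356 to 4415 CPM in fibrosis and from 562 to 1615 CPM in controls. Several other marker lists differed between groups, and their calls stand beside 18.6% of all tested genes higher and 17.2% lower. The summed level of 7 cycling genes ranged from 604 to 911 CPM in fibrosis and from 1526 to 1973 CPM in controls. That of 8 dendritic cell markers ranged from 276 to 339 CPM in fibrosis and from 169 to 184 CPM in controls, with 4 of 8 higher. All 6 tested platelet markers were higher, with sums of 285 to 1180 CPM in fibrosis and 172 to 214 CPM in controls. Of 10 erythroid markers, 5 were lower, 0 higher and 5 not called. Their sums overlapped, at 831 to 7435 CPM in fibrosis and 3281 to 5506 CPM in controls. Higher markers numbered 3 of 6 in the NK cell list, 1 of 8 in the T cell list (Cd8a) and 1 of 5 in the plasma cell list. The macrophage and neutrophil markers did not pass the test. Summed neutrophil markers reached 331% and 421% of the control mean in fibrosis 4 and 5, against 33.9% to 131% in fibrosis 1 to 3. Macrophage markers split in the same way, at 176% and 190%, against 51.9% to 58.1%. T cell markers were at 211% and 213%, against 75.5% to 148%, and platelet markers at 597% and 613%, against 148% to 361%. Results are therefore also given without fibrosis 4 and 5. In bulk RNA, fewer cells of a type and less RNA per cell cannot be told apart, and the part of other cell types in the results below was not tested.

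Promoter windows are shown first because the heavy chains, B2m and the transporter genes are known to share upstream elements. RefSeq windows on GRCm38.p6, from 250 bases before to 50 after the listed start, matched 8 of 10 members, all but Tap2 and Nlrc5. The 5 short motifs below were searched on both strands: the kB element (the first run of capitals in the H2-K1 window), the interferon-response-like GAANNGAAA, the longer IRF dimer (GAAA, any 2 bases, GAAA), the CRE-like TGACG and the Y box CCAAT. Capitals mark every match on either strand, and each window runs 5′ to 3′ along its gene.
H2-K1 (chr17:34000298-34000597, minus strand): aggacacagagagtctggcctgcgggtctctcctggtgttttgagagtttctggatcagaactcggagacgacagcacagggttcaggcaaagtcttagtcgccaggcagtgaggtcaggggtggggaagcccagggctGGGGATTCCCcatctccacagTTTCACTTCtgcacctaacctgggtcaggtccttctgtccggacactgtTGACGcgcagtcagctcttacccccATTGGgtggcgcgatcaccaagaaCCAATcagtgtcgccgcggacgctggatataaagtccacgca
H2-D1 (chr17:35262844-35263143, plus strand): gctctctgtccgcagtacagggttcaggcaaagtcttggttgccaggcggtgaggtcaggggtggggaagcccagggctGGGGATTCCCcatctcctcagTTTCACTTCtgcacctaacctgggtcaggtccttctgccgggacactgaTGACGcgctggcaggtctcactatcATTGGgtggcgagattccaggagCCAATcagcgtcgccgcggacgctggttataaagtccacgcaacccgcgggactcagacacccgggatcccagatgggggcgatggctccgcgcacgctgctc
H2-T23 (chr17:36032652-36032951, minus strand): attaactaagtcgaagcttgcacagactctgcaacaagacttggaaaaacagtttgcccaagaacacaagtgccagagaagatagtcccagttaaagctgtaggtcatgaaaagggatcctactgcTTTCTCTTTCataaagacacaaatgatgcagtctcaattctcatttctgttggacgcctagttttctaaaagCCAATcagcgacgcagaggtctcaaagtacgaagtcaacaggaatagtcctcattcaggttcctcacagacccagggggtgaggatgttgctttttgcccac
B2m (chr2:122147437-122147736, plus strand): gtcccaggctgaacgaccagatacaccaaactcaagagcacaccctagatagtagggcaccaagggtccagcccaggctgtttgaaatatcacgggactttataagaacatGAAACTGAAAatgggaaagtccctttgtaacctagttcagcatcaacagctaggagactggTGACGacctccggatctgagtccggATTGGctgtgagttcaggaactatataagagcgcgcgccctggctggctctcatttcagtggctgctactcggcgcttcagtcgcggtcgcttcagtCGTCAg
Tap1 (chr17:34187306-34187605, plus strand): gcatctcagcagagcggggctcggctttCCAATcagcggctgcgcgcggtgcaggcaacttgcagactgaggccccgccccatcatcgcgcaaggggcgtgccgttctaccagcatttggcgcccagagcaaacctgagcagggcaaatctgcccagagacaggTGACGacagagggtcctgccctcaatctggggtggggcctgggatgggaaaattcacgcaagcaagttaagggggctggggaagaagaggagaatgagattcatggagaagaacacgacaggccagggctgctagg
Tapbp (chr17:33919228-33919527, plus strand): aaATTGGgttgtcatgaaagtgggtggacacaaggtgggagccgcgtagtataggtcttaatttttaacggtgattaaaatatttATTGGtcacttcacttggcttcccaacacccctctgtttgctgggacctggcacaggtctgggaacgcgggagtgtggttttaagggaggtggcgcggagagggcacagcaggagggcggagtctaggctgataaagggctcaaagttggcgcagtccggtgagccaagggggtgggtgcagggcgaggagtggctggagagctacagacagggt
The windows of H2-K1, H2-D1 and H2-Q7 each held 1 kB element, 1 interferon-response-like element, 1 CRE-like element and 2 Y boxes, in that order. The kB element began 111 bases before the listed start in H2-K1, 171 before it in H2-D1 and 133 before it in H2-Q7. It occurred in 28 of 27025 RefSeq windows of this length, or 0.104%, and the interferon-response-like element in 7.56%. The bases around the kB element were also much alike in the H2-K1, H2-D1 and H2-Q7 windows, so their matches are not independent of each other. H2-T23 and B2m, and also Erap1, instead held the IRF dimer element, found in 3.49% of windows. The window of Tap1 held a CRE-like element and a Y box, and that of Tapbp held only Y boxes. These 2 motifs occurred in 21% and 37.9% of windows. A match describes letters in a window and says nothing of binding in these cells.

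**Figure D1:**
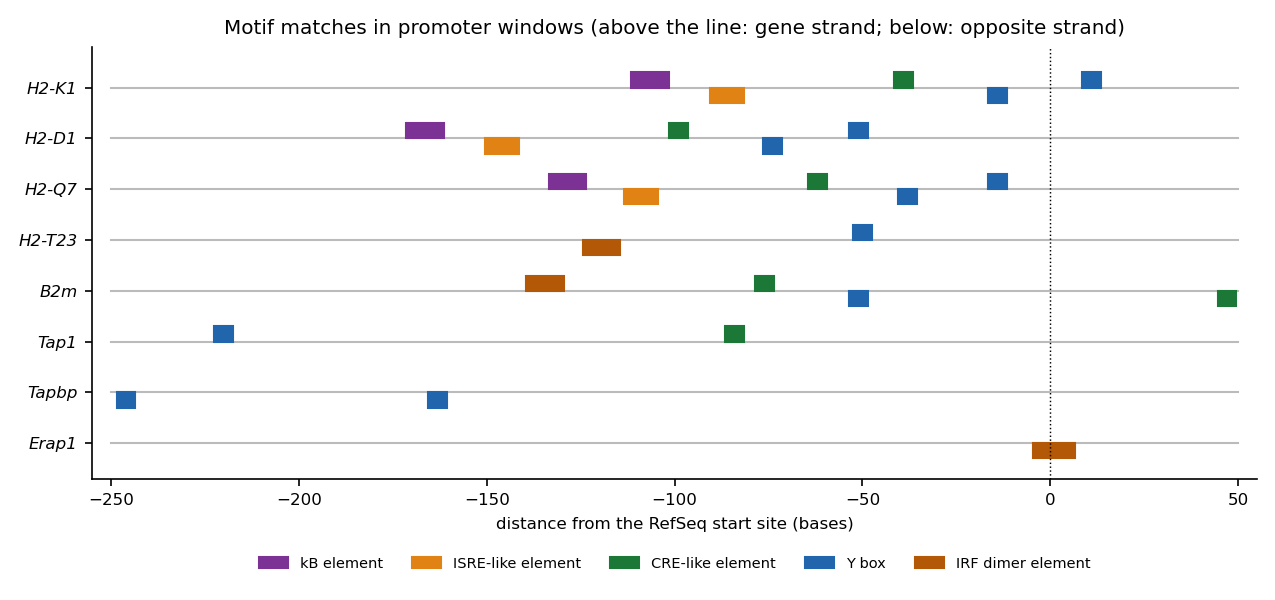
Positions of the 5 motifs in the promoter windows of 8 members, in bases from the listed transcription start. H2-K1, H2-D1 and H2-Q7 hold the kB, interferon-response-like, CRE-like and Y box motifs in the same order, while Tapbp holds only Y boxes.

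The question was whether class I genes differ between splenic B cells of fibrotic and wildtype mice. Of the 10 members, 5 were higher in fibrosis, 0 were lower and 5 did not pass the test (edgeR quasi-likelihood test, adjusted p below 0.05 over all tested genes). Over all tested genes 18.6% were higher and 17.2% lower. The 5 that rose were the 4 heavy chains and B2m. The median log2 fold change was 0.30 over the members and 0.045 over all tested genes. All fibrosis libraries lay above all control libraries for 3 members, H2-K1, H2-T23 and B2m, a pattern seen in 11.4% of tested genes, and below them for 0 members, against 14.0% of tested genes.

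H2-K1 (ENSMUSG00000061232; chr17:33996017-34000333, minus strand), the classical heavy chain of the K locus, had 3402, 3930, 2559, 2820 and 3077 CPM in fibrosis 1 to 5, against 2274, 2085, 2263, 2498 and 2215 CPM in controls 1 to 5. The lowest fibrosis library was just above the highest control. It rose by a log2 fold change of 0.48 ± 0.12 (SE; edgeR adjusted p = 0.00643).

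H2-D1 (ENSMUSG00000073411; chr17:35262730-35267499, plus strand), the classical heavy chain of the D locus, had 3329, 3627, 2541, 3074 and 3242 CPM in fibrosis and 2534, 2393, 2418, 2814 and 2383 CPM in controls. Fibrosis 3 lay within the control range and the other fibrosis libraries above it. Its log2 fold change was 0.33 ± 0.11 (SE; edgeR adjusted p = 0.0250), near the threshold. The call was lost without fibrosis 2 (edgeR adjusted p = 0.0634), or without control 1, 2, 3 or 5 (edgeR adjusted p between 0.0547 and 0.0691).

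H2-Q7 (ENSMUSG00000060550; chr17:35439155-35443773, plus strand), a non-classical heavy chain that contributes to the Qa-2 antigen, was expressed far below both. It had 228, 300.0, 197, 185 and 238 CPM in fibrosis and 154, 130, 172, 195 and 171 CPM in controls. Fibrosis 4 was below the highest control, so the groups overlapped, and the log2 fold change was 0.48 ± 0.14 (SE; edgeR adjusted p = 0.0154). By annotation (GENCODE M21), 12% of the 100-base stretches of its transcripts also occur, on either strand, in other genes' transcripts. That share was 0.957% for H2-K1 and 3.59% for H2-D1. Heavy chain genes are also highly polymorphic between strains, and the strain is not given, so levels of these genes are uncertain where reads could fit more than 1 copy.

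H2-T23 (ENSMUSG00000067212; chr17:36029773-36032855, minus strand) encodes Qa-1, which binds a leader peptide from other class I heavy chains and is read by NK cells. It had 631, 658, 490, 516 and 554 CPM in fibrosis and 427, 399, 422, 448 and 406 CPM in controls. The groups were separate and the controls close together, with a coefficient of variation of 12.7% in fibrosis and 4.53% in controls. The log2 fold change was 0.44 ± 0.10 (SE; edgeR adjusted p = 0.00348).

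B2m (ENSMUSG00000060802; chr2:122147686-122153083, plus strand), the light chain that every one of these heavy chains needs for surface display, had 1365, 1741, 1254, 1543 and 1745 CPM in fibrosis and 1172, 949, 1047, 1189 and 988 CPM in controls. All fibrosis libraries were above all controls. Its log2 fold change of 0.52 ± 0.12 (SE; edgeR adjusted p = 0.00361) was the largest estimate among the members, within the SE of H2-K1 and H2-Q7. None of its 100-base stretches occurs in another gene's transcript.

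**Figure D2:**
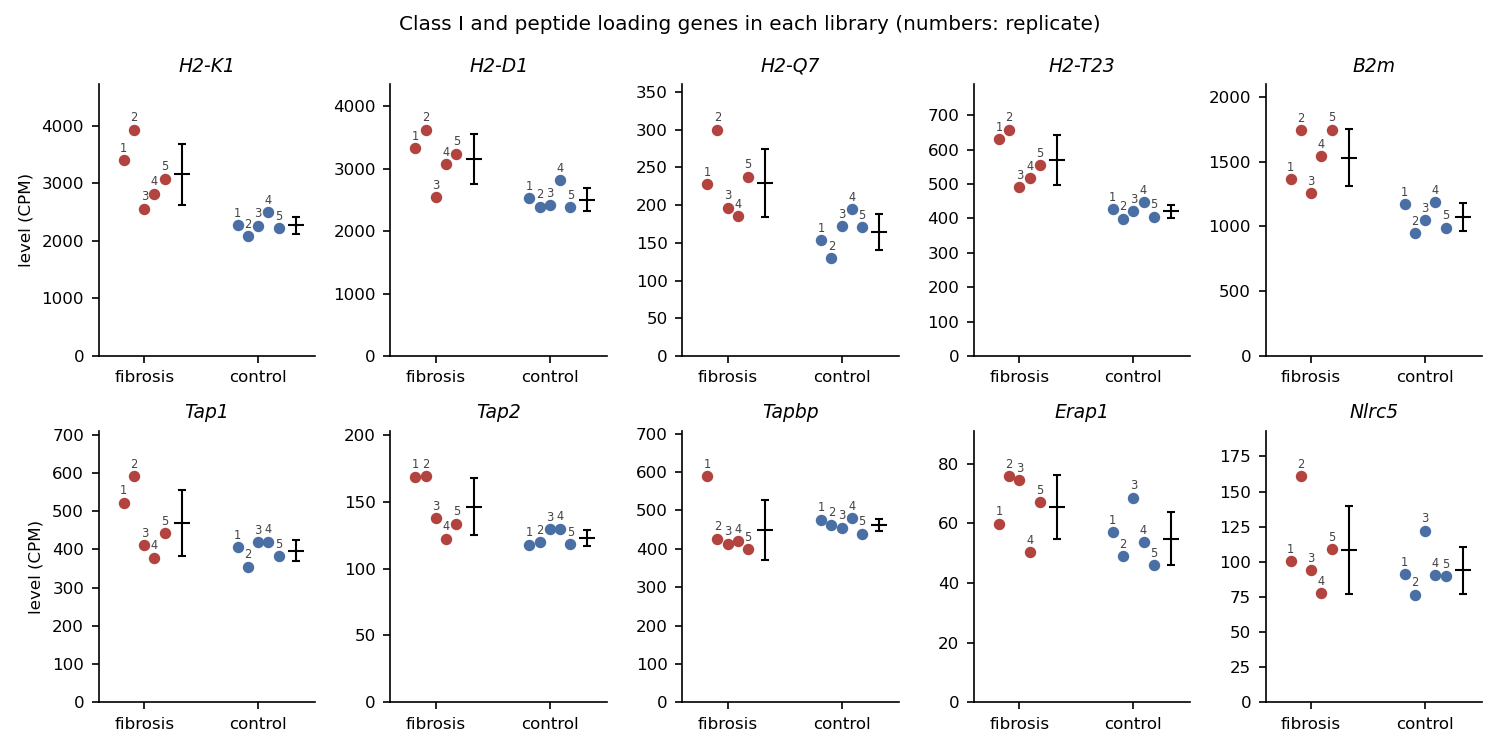
Level of each member in every library (CPM, linear axes), with fibrosis libraries left and control libraries right and the mean and SD of each group. H2-K1, H2-T23 and B2m show no overlap between groups, and Tapbp shows 1 high fibrosis library at 589 CPM.

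Of the members, Tap1, Tap2, Tapbp and Erap1, which supply and load peptide, did not pass the test. Tap1 (ENSMUSG00000037321; chr17:34187553-34197225, plus strand), one chain of the peptide transporter, had 522, 591, 412, 378 and 443 CPM in fibrosis and 405, 355, 419, 420 and 382 CPM in controls. Fibrosis 1, 2 and 5 were above every control, and fibrosis 3 and 4 lay within the control range. The log2 fold change was 0.24 ± 0.12 (SE; edgeR adjusted p = 0.131).

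Tap2 (ENSMUSG00000024339; chr17:34203527-34216321, plus strand), its partner chain, had 169, 169, 137, 122 and 133 CPM in fibrosis and 118, 120, 129, 130 and 118 CPM in controls. Only fibrosis 4 lay within the control range. The log2 fold change was 0.25 ± 0.10 (SE; edgeR adjusted p = 0.0690). Fibrosis 4 was the lowest fibrosis library for both transporter chains.

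Tapbp (ENSMUSG00000024308; chr17:33915899-33929288, plus strand), which encodes tapasin, had 589, 426, 413, 420 and 398 CPM in fibrosis and 476, 463, 455, 479 and 439 CPM in controls. Fibrosis 1 was the highest library of all and the other 4 fibrosis libraries were below every control. Its log2 fold change was -0.042 ± 0.11 (SE; edgeR adjusted p = 0.801). Its gene overlaps Zbtb22 on the same strand. On either strand, 14.8% of its 100-base stretches occur in other annotated transcripts. Most of these, 14.7%, match Gm19412 on the opposite strand, which had 1 count over all libraries.

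Erap1 (ENSMUSG00000021583; chr13:74639568-74693201, plus strand), the aminopeptidase that trims peptides in the endoplasmic reticulum, had 59.9, 75.8, 74.6, 50.4 and 67.2 CPM in fibrosis and 57.1, 48.9, 68.7, 53.7 and 46.1 CPM in controls. The groups overlapped widely, and the log2 fold change was 0.26 ± 0.13 (SE; edgeR adjusted p = 0.144). Erap1 overlaps Cast on the opposite strand, and strand use in counting is not given, so reads of the 2 genes cannot be told apart there.

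Nlrc5 (ENSMUSG00000074151; chr8:94434356-94527272, plus strand) had 101, 161, 93.9, 77.6 and 109 CPM in fibrosis and 91.4, 76.7, 122, 90.5 and 89.7 CPM in controls. Fibrosis 2 was the highest library and fibrosis 4 was among the lowest. The log2 fold change was 0.21 ± 0.18 (SE; edgeR adjusted p = 0.396), and the spread was the widest of the members, with a coefficient of variation of 29.1% in fibrosis and 17.8% in controls. Its estimate depended on single libraries, at 0.018 without fibrosis 2, 0.30 without fibrosis 4, 0.14 without control 2 and 0.31 without control 3, and it was called in none of the 10 fits that left out 1 library.

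Per length of gene, in the authors' FPKM (fragments scaled to gene length and library size), B2m had the highest level, 1749 ± 225 FPKM in fibrosis and 1241 ± 127 FPKM in controls (SD, n = 5 each). H2-D1 followed at 1208 ± 162 FPKM in fibrosis and 971 ± 72.2 FPKM in controls, and H2-K1 at 1194 ± 215 FPKM in fibrosis and 868 ± 57.5 FPKM in controls. The levels of these 2 heavy chains in fibrosis lay within each other's spread. Well below came H2-T23 at 195 ± 27.8 FPKM in fibrosis and 145 ± 6.63 FPKM in controls, and Tapbp at 135 ± 27.3 FPKM in fibrosis and 140 ± 5.29 FPKM in controls. Tap1, H2-Q7 and Tap2 were next, at 84.6, 53.0 and 38.2 FPKM in fibrosis and 72.2, 38.4 and 32.5 FPKM in controls. Nlrc5 and Erap1 were lowest, at 12.6 ± 3.71 and 8.87 ± 1.43 FPKM in fibrosis and 11.0 ± 1.88 and 7.52 ± 1.15 FPKM in controls.

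Across libraries the members moved largely together. After removing group means, 41 of 45 pairs of members had a positive Pearson r of log2 CPM over the 10 libraries, with a median of 0.61, as a description with no test, since libraries share their scaling. The range ran from -0.23 for B2m with Tapbp to 0.97 for H2-K1 with H2-T23. Pairs among other genes were not measured in this way, so these values are not read as particular to the members. Without fibrosis 4 and 5, 8 of 10 members were higher and 0 lower (edgeR), where 18.4% of the 14607 tested genes were higher and 18.8% lower. Tap1, Tap2 and Erap1 then passed, with log2 fold changes of 0.37, 0.37 and 0.36 (edgeR adjusted p = 0.0180, 0.00504 and 0.0424). They also passed when fibrosis 4 alone was left out, with log2 fold changes of 0.31, 0.31 and 0.34 (edgeR adjusted p = 0.0470, 0.0223 and 0.0428). Tapbp and Nlrc5 were not called in either fit. Without fibrosis 4 and 5 they were at 0.051 and 0.34 (edgeR adjusted p = 0.751 and 0.176), and without fibrosis 4 alone at -0.019 and 0.30 (edgeR adjusted p = 0.920 and 0.180).

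B cell markers moved in the same direction as the heavy chains. Their summed level ranged from 6056 to 8624 CPM in fibrosis and from 5758 to 6567 CPM in controls. It stood at 136%, 144%, 134%, 101% and 106% of the control mean in fibrosis 1 to 5. Of the 8 markers, 3 were higher in fibrosis and 0 lower (all tested genes: 18.6% and 17.2%). Their median log2 fold change was 0.28, with a range of 0.19 to 0.47. The median over all 10 class I members was 0.30, and the 4 heavy chains and B2m lay between 0.33 and 0.52. Scaled to this sum, a setting added after the values were seen, 0 of 10 members were higher and 1, Tapbp, was lower (edgeR). With that scaling 4.56% of all tested genes were higher and 31.1% lower, and the median gene shifted by -0.29. B2m then had a log2 difference of 0.24 (edgeR adjusted p = 0.283), H2-K1 of 0.18 (edgeR adjusted p = 0.310) and Tapbp of -0.34 (edgeR adjusted p = 0.0438). Relative to the sum, B2m was at 93.7%, 113%, 87.4%, 143% and 154% of the control mean in fibrosis 1 to 5, and H2-K1 was at 110%, 121%, 84.2%, 123% and 128%. Both were below the control mean in fibrosis 3, B2m also in fibrosis 1, and both were highest in fibrosis 4 and 5, whose B cell marker sums were near the control mean. All 10 members overlapped between groups on this scale.

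**Figure D3:**
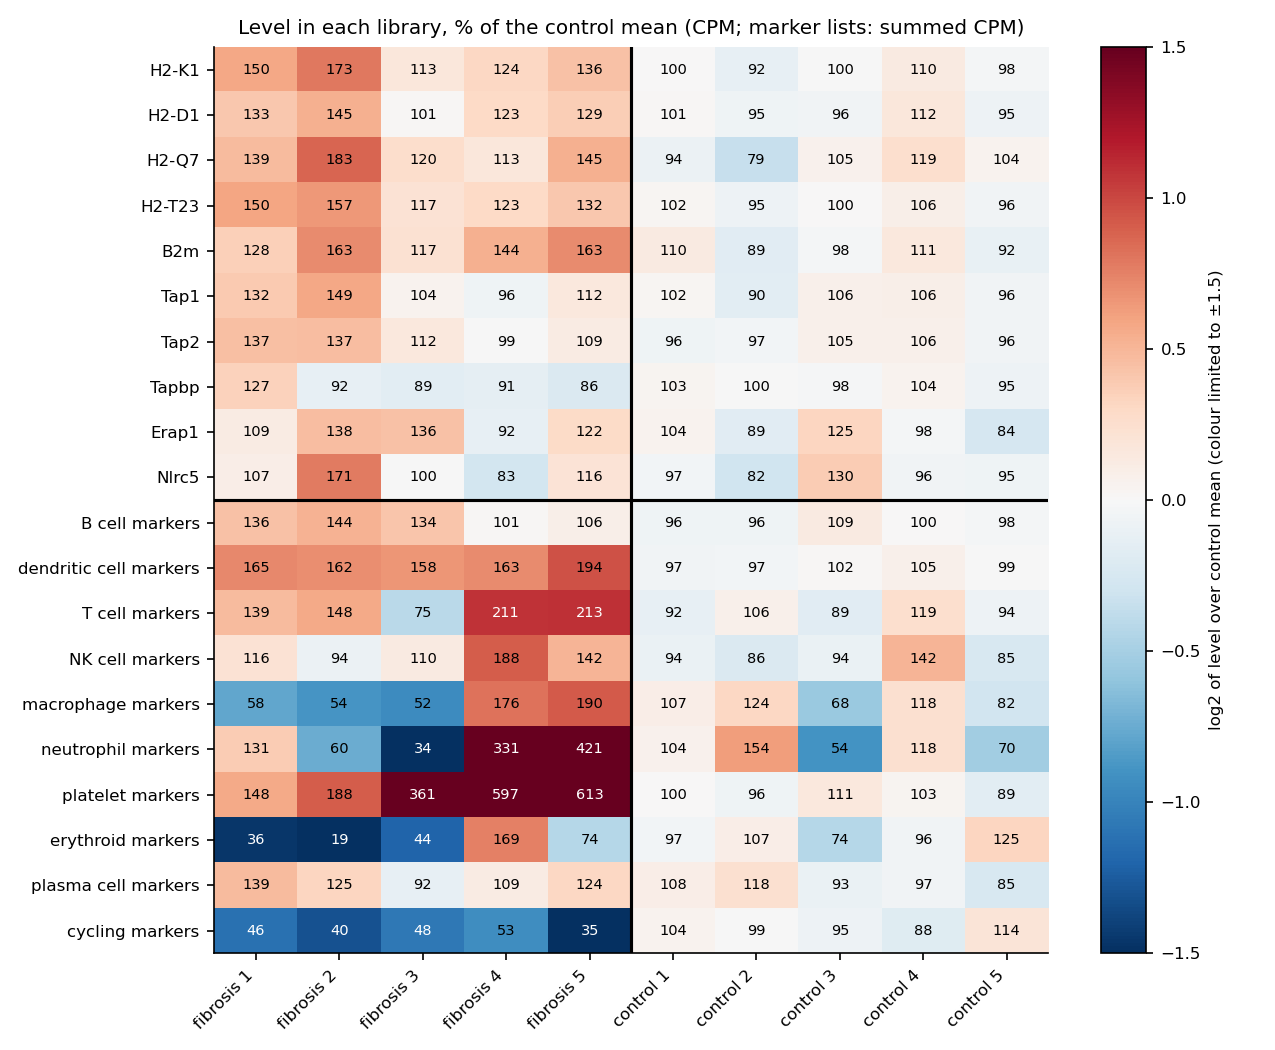
Level of each member and summed level of each marker list in every library, as percent of the control mean, coloured on a log2 scale. B2m lies between 117% and 163% in all 5 fibrosis libraries, while the summed B cell markers lie between 101% and 144% and neutrophil markers reach 421% in fibrosis 5.

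Other genes of the pathway were followed in lists, whose counts stand beside 18.6% of all tested genes higher and 17.2% lower. Of 15 other class I heavy chain genes, 8 were tested and 5 were higher, 0 lower, with a median log2 fold change of 0.50. The tested genes that rose included H2-M3, which presents N-formyl peptides, at 86.2 ± 7.40 CPM in fibrosis and 60.5 ± 3.37 CPM in controls (log2 fold change 0.51 ± 0.082 SE; edgeR adjusted p = 0.000440). H2-T22, a ligand of some gamma-delta T cell receptors, was at 169 ± 26.7 CPM in fibrosis and 120 ± 5.85 CPM in controls, a log2 fold change of 0.50 (edgeR adjusted p = 0.00257). H2-T10, also such a ligand, rose by 0.57 on the log2 scale (edgeR adjusted p = 0.00149). On either strand, 28.1% of its 100-base stretches and 31.5% of those of H2-T22 occur in other transcripts. Most match an overlapping gene on the opposite strand with few counts, BC023719 for H2-T10 (22.5%) and A930015D03Rik for H2-T22 (24%). H2-M2, a heavy chain gene at a low level, rose to 2.67 ± 0.598 CPM in fibrosis, against 0.673 ± 0.439 CPM in controls (log2 fold change 1.97; edgeR adjusted p = 0.000923).

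Of 7 class I-like genes, 6 were tested, 3 were higher and 0 lower (all tested genes: 18.6% and 17.2%). Cd1d1, which presents lipids to NKT cells, had 54.4 ± 9.34 CPM in fibrosis and 39.2 ± 2.42 CPM in controls (log2 fold change 0.47; edgeR adjusted p = 0.00545). Procr, the endothelial protein C receptor, was at a low level, 3.31 ± 0.588 CPM in fibrosis and 1.70 ± 0.219 CPM in controls. It rose by 0.95 on the log2 scale (edgeR adjusted p = 0.00223). Mr1, which presents microbial metabolites to MAIT cells, was at 0.55 (edgeR adjusted p = 0.0270), but the call was lost without fibrosis 3 or without control 1, 4 or 5 (edgeR adjusted p between 0.0548 and 0.0737), and without fibrosis 4 and 5 (edgeR adjusted p = 0.0552). Fcgrt, the neonatal Fc receptor, was at 0.41 (edgeR adjusted p = 0.132), and was called without fibrosis 3, at 0.50 (edgeR adjusted p = 0.0478).

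Of 7 other loading and chaperone genes, 2 were higher and 0 lower (all tested genes: 18.6% and 17.2%), and the median was -0.047. Tapbpl, a tapasin-related peptide editor, had 68.4 ± 12.7 CPM in fibrosis and 51.4 ± 2.36 CPM in controls, a log2 fold change of 0.41 (edgeR adjusted p = 0.0131). Lnpep, an endosomal aminopeptidase used in cross-presentation, averaged 214 CPM in fibrosis and 138 CPM in controls (log2 fold change 0.63 ± 0.15 SE; edgeR adjusted p = 0.00628). Calr, the chaperone calreticulin, was at -0.35 (edgeR adjusted p = 0.0598), and was called lower without fibrosis 1 or without fibrosis 2 (edgeR adjusted p = 0.0234 and 0.0174). Uggt1, which checks glycoprotein folding, was at -0.20 (edgeR adjusted p = 0.140).

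Of 10 peptide supply genes, 3 were higher and 2 lower (all tested genes: 18.6% and 17.2%). The immunoproteasome subunits Psmb8 and Psmb9 rose, Psmb8 to 351 ± 45.8 CPM in fibrosis, against 220 ± 11.0 CPM in controls (log2 fold change 0.67; edgeR adjusted p = 0.000259). Psmb9 was at 238 ± 43.5 CPM in fibrosis and 154 ± 8.33 CPM in controls (log2 fold change 0.63; edgeR adjusted p = 0.00130). Psme3, a nuclear proteasome activator, fell to 171 ± 14.6 CPM in fibrosis, against 215 ± 10.2 CPM in controls (log2 fold change -0.33; edgeR adjusted p = 0.00715). Blmh, a cytosolic peptidase, fell by 0.33 on the log2 scale (edgeR adjusted p = 0.00896).

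Of 19 promoter factors and interferon-gamma signalling genes, 5 were higher and 3 lower (all tested genes: 18.6% and 17.2%). These counts lie near those shares and are not read as a result about the list. Jak2, a kinase of the interferon-gamma receptor, had 122 ± 11.3 CPM in fibrosis and 78.7 ± 9.81 CPM in controls (log2 fold change 0.64; edgeR adjusted p = 0.000374). Irf8, an interferon regulatory factor of B and myeloid cells, had 911 ± 105 CPM in fibrosis and 623 ± 21.1 CPM in controls (log2 fold change 0.55; edgeR adjusted p = 0.000681). Creb1, which can bind CRE elements, rose by 0.51 on the log2 scale (edgeR adjusted p = 0.00131). Jak1 rose by 0.38 (edgeR adjusted p = 0.0151), a call lost without fibrosis 3 (edgeR adjusted p = 0.0503).

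Class II genes, given for comparison, were also higher. Of 7 class II genes 6 were higher and 0 lower (all tested genes: 18.6% and 17.2%). Their median log2 fold change was 0.78, against 0.30 for the class I members. H2-Aa had 4431, 4574, 4251, 4401 and 4812 CPM in fibrosis and 2310, 2133, 2364, 2364 and 2151 CPM in controls, a log2 fold change of 0.99 ± 0.084 (SE; edgeR adjusted p = 1.34e-05). H2-Ab1, H2-Eb1 and H2-DMb1, further class II genes, were at 0.89, 0.85 and 0.78 (edgeR adjusted p = 2.76e-05, 3.69e-05 and 2.60e-05). Scaled to the B cell marker sum, H2-Aa remained higher (log2 difference 0.71; edgeR adjusted p = 0.00142). Ciita, the class II transactivator and a relative of Nlrc5, was at 0.35 ± 0.14 (SE; edgeR adjusted p = 0.0719). It was called higher without fibrosis 4 and 5, at 0.54 (edgeR adjusted p = 0.000798), and without fibrosis 4 alone, at 0.46 (edgeR adjusted p = 0.00679).

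**Figure D4:**
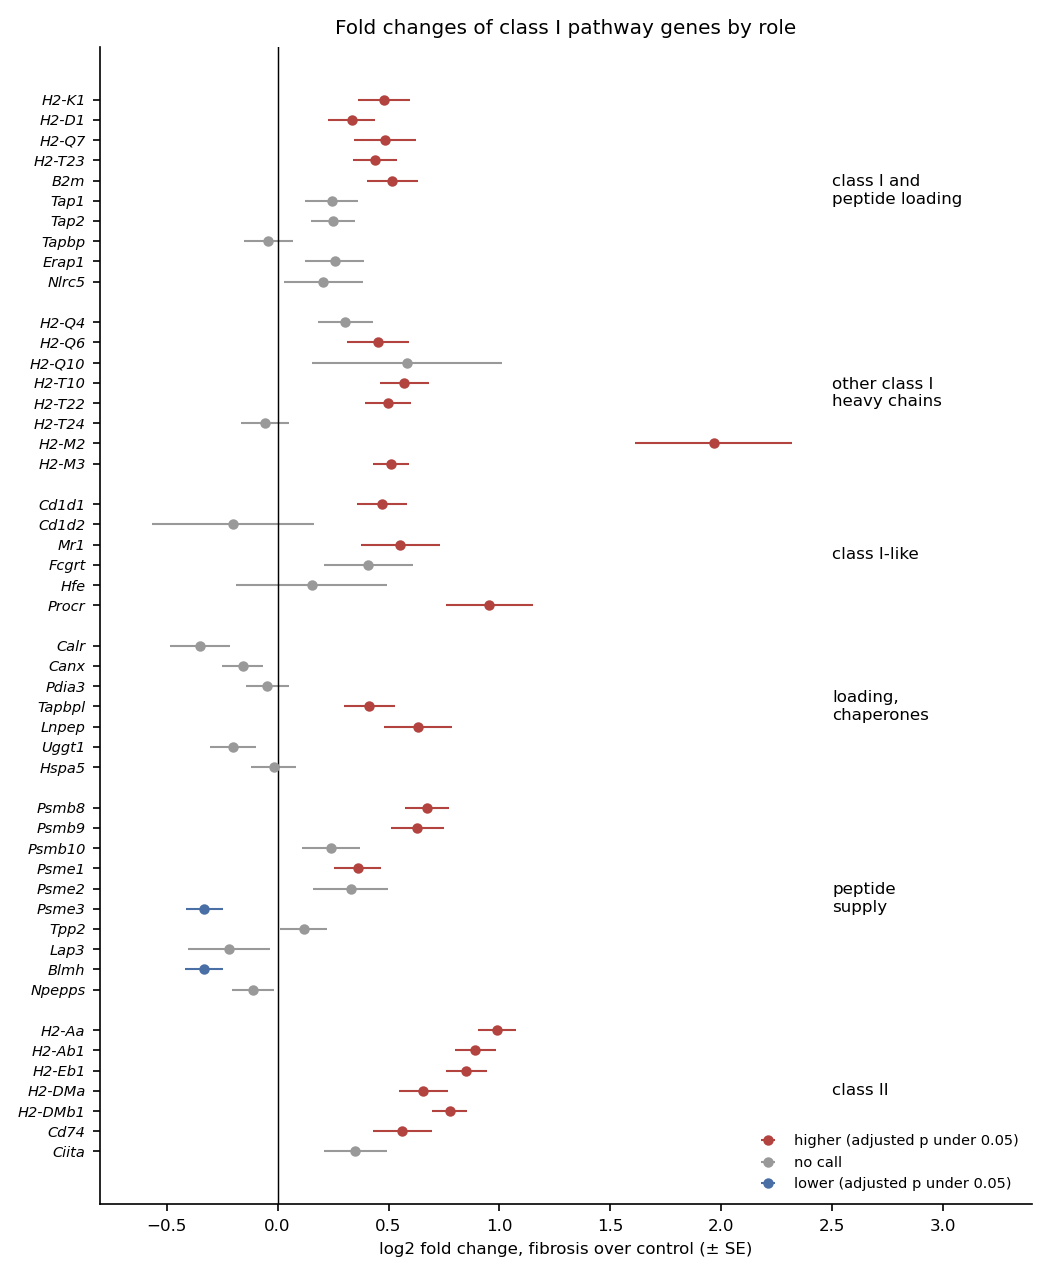
Log2 fold change, fibrosis over control, with SE, for the members and the tested genes of the other heavy chain, class I-like, loading, peptide supply and class II lists, coloured by the edgeR call. The heavy chains and B2m lie between 0.33 and 0.52, Tapbp lies at -0.042 and H2-Aa at 0.99.

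Ratios of FPKM within a library cancel its scaling. These 7 ratios were chosen after values were seen, so they are given with no test. H2-K1 over H2-Aa was 0.504 ± 0.0777 in fibrosis and 0.719 ± 0.0294 in controls (SD, n = 5 each), and the groups did not overlap. Tapbp over B2m was 0.0786 ± 0.0215 in fibrosis and 0.114 ± 0.00891 in controls, with fibrosis 1 inside the control range and the other 4 below it. H2-K1 over H2-D1 was 0.985 ± 0.0641 in fibrosis and 0.894 ± 0.0273 in controls, with overlap. Tap1 over B2m was 0.0487 ± 0.00923 in fibrosis and 0.0584 ± 0.00355 in controls. H2-K1 over B2m was 0.685 ± 0.0999 in fibrosis and 0.702 ± 0.0386 in controls, and Tap1 over Tap2 was 2.21 ± 0.142 in fibrosis and 2.23 ± 0.116 in controls. Those last 2 ratios overlapped widely.

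Tap1 and Psmb9 are read from opposite strands of shared DNA, with listed starts 226 bases apart and windows that overlap by 275 bases. Psmb9 over Tap1 was 0.962 and 0.975 in fibrosis 4 and 5, against 0.628 to 0.670 in fibrosis 1 to 3 and 0.547 to 0.634 in controls. The 2 libraries with the highest neutrophil, macrophage, T cell and platelet marker sums had the highest ratios, and the part of those cells was not tested. The genes overlap on opposite strands, so some reads cannot be assigned to 1 of them without strand.

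**Figure D5:**
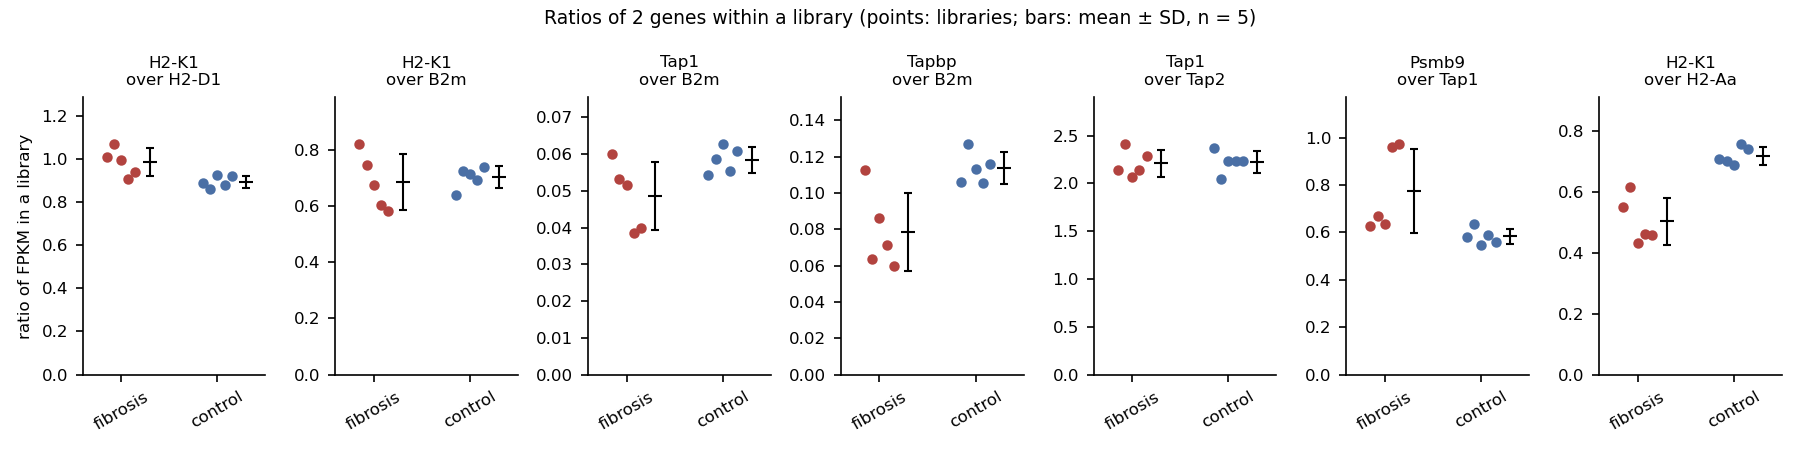
Ratios of FPKM of 2 genes within each library, with fibrosis left and control right. H2-K1 over H2-Aa is separate between groups, and Psmb9 over Tap1 is highest in fibrosis 4 and 5, at 0.962 and 0.975.

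Among tested genes averaging at least 10 CPM, those whose level followed Nlrc5 most closely, by Pearson r of log2 CPM over 10 libraries after removing group means, were Lcp1 (0.97), Gbp3 (0.95), H2-T24 (0.93), Slfn8 (0.91) and Parp14 (0.91). They are the top of a search over all such genes, given with no test. Like Nlrc5, each was highest in fibrosis 2 among fibrosis libraries and in control 3 among controls. The r without those libraries was not computed. Among members r with Nlrc5 was highest for Tap1 (0.84) and H2-Q7 (0.82) and lowest for Tapbp (-0.06). Lcp1, an actin-bundling protein of white blood cells, had 1330 ± 125 CPM in fibrosis and 1039 ± 37.5 CPM in controls. Gbp3, an interferon-inducible GTPase, had 53.3 ± 9.30 CPM in fibrosis and 30.6 ± 3.28 CPM in controls (log2 fold change 0.80; edgeR adjusted p = 0.000282).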

How the data were processed

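Poly-A RNA of 10 libraries was analysed from 2 tables. The authors deposited raw read counts per gene and FPKM per gene. The build is GRCm38 (mm10), per the submitters' processing notes, while the aligner, counter and strand setting are not stated there. The FPKM of the authors were used for levels between genes, ratios and an alternative test. Counts were tested with edgeR 4.0.16 in R 4.3.3 (TMM scaling, filterByExpr, robust quasi-likelihood test), with Benjamini-Hochberg adjustment over 14283 genes. The fit was also run on simulated counts, with changed genes balanced up and down and the same spread for every gene. That setting is simpler than these data, so it does not test the calls given here. CPM used TMM-scaled totals. Alternatives used DESeq2 1.42.0 and limma 3.58.1. The totals per library, 13439100 to 17954551 counts, leave counting error small for the members, and the spread between libraries sets the precision. The closest 2 of all 10 libraries differed by 5.40 times the sampling noise (chi-square per degree of freedom), more than counting alone gives. Each was counted as its own sample, though this cannot show that they came from separate mice.

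The members and gene lists were chosen with earlier results of these data known. Genes named were all members, up to 4 tested genes per list with the smallest p, H2-Aa, Ciita, Sptb, and the 5 genes most like Nlrc5. Another gene of the rule is not reported here. Cd79a, Cd3e and the genes in marker sums were named as checks. The 7 ratios were chosen after values were seen. Exact permutation tests were also run on them and are not reported for that reason. Sptb, among the 5 of 10 erythroid markers that were lower, had 62.3 ± 29.1 CPM in fibrosis and 385 ± 75.2 CPM in controls.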

Additional observations from a re-analysis of the deposited data

Results flagged for a closer look

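In a group of 5 libraries, a library was picked out when its gap to the nearest other exceeded 0.71 of the group's range (Dixon's 95% value). This picked out 5 of 82 gene and group combinations, near the 1 in 20 that chance gives. Tapbp was 589 CPM in fibrosis 1, against 398 to 426 CPM in the other fibrosis libraries. Parp14 was 153 CPM in fibrosis 2, against 91.4 to 105 CPM in the others. In control 3, Slfn8 was 51.2 CPM, against 32.9 to 34.8 CPM in the other controls, and H2-M2 was 1.44 CPM, against 0.330 to 0.601 CPM. H2-M3 was 54.8 CPM in control 2, against 60.8 to 63.2 CPM in the other controls. The cause was not tested.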

How the results depend on the processing

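The calls of H2-K1, H2-T23 and B2m were kept under every alternative run except scaling to the B cell marker sum, which was added after the data were seen. Under that scaling the log2 fold changes were 0.18 for H2-K1, 0.046 for H2-D1, 0.18 for H2-Q7, 0.14 for H2-T23 and 0.24 for B2m, none called by edgeR. Tap1 was at -0.064, Tap2 at -0.057, Erap1 at -0.042 and Nlrc5 at -0.10, turned in sign, and Tapbp at -0.34, now called. Over all genes 651 were higher and 4443 lower. Higher and lower counts were then 1 and 1 for the other heavy chains, 1 and 6 for promoter factors, 0 and 3 for the loading genes, and 0 were higher among class I-like and peptide supply genes. Slfn8 (-0.11) and Parp14 (-0.16) turned in sign.

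H2-D1 lost its call by library size only (0.22), with no filter (0.28) and by limma on log2 FPKM plus 1 (0.31) or plus 0.1 (0.31). Library size only moved the median gene by -0.11 and the share of higher calls to 35.0%, against 52.0%. By limma voom with quality weights Tap1 (0.36), Tap2 (0.34) and Erap1 (0.36) were called, as without fibrosis 4 and 5 (0.37, 0.37 and 0.36), where Tapbp turned to 0.051. H2-T24 turned to 0.071 by voom and to 0.029 without fibrosis 4 and 5. Leaving out 1 library at a time it ranged from -0.14 to 0.0027, turning without control 3, and Parp14 from -0.0080 to 0.25, turning without fibrosis 2. Leaving out 1 library at a time gave 0.28 to 0.39 for H2-D1, 0.15 to 0.31 for Tap1, 0.19 to 0.31 for Tap2 0.19 to 0.35 for Erap1, 0.018 to 0.31 for Nlrc5 and -0.16 to -0.00098 for Tapbp. Mr1 and Jak1 lost their calls by library size only (0.45 and 0.28) and with no filter (0.50 and 0.33). Ciita was called by voom (0.47) and in the replicate block (0.33). The list counts that follow stand beside calls over all tested genes, which moved as well. By library size 1777 genes were higher and 3306 lower, and by voom 2969 and 2830, of 14283. DESeq2 gave 2763 and 2644, and the replicate block 2677 and 2534. With no filter 2328 were higher and 2698 lower, of 33548. Without fibrosis 4 and 5, 18.4% were higher and 18.8% lower. Leaving out 1 library gave 2052 to 2914 higher and 2083 to 2582 lower. Loading genes called lower numbered 3 by library size, 1 with no filter, by DESeq2 and in the replicate block, and 0 to 1 leaving out 1 library. Promoter factors called higher numbered 3 by library size and 10 by voom. Those called lower numbered 1 without fibrosis 4 and 5 and 1 to 3 leaving out 1 library, and 1 class I-like gene was lower without fibrosis 4 and 5. The cause of these changes was not tested.

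Replicate numbers are not tied to mice or batches in the labels, and same-numbered libraries did not all deviate together, with r of 0.11, -0.13, 0.42, 0.25 and -0.25 for numbers 1 to 5. For fibrosis 1, 3 and 4 the most similar control had the same number, and for fibrosis 2 and 5 it did not. With the replicate number as a block, 2677 genes were higher and 2534 lower, and H2-Q7 was at 0.47 (edgeR adjusted p = 0.0530), no longer called.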

Other observations

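Of the 10 members, 7 lie on chromosome 17 between 33915899 and 36032855 (GRCm38), a span that also holds the class II genes. Of the 112 other tested genes in that span, 30 were higher and 18 lower in fibrosis (all tested genes: 18.6% and 17.2%). The median log2 fold change of those 112 was 0.076, against 0.045 over all tested genes. No test was run on this span.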
